A study of Mus musculus with 36 samples.

Results

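The transcripts of 10 chaperones, folding enzymes and regulators of the endoplasmic reticulum (ER) were followed in the livers of mice injected with carbon tetrachloride (CCl4) for up to 1 year. The genes, Hspa5, Hsp90b1, Calr, Canx, Pdia3, Pdia4, Pdia6, Dnajb9, Sdf2l1 and Xbp1, were taken by symbol, and all 10 had a row among the 32544 gene symbols of the count table. Male C57BL/6N mice that were 8 to 10 weeks old at the start were used, and 36 liver libraries fell into 6 groups of 6 replicates. The labels do not say that each library came from its own mouse, so p-values measure the spread between these libraries, which may be in part technical. CCl4, which Cyp2e1 of hepatocytes turns into toxic radicals, was injected with olive oil as its carrier (1 g per kg) into the peritoneum 2 times a week for 2, 6 or 12 months, and tissue was collected 6 days after the final injection. Oil groups received olive oil alone for 2 or 12 months. The month 0 group is titled as a control, and its treatment label is olive oil. Every group thus shares the strain, the sex and an olive oil label, no oil group of month 6 was analysed here, and no label gives the time of day of collection.

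Proteins that enter the secretory pathway fold in the ER with the help of chaperones. Hspa5 (BiP) binds unfolded chains in a cycle driven by ATP, Calr and Canx hold glycoproteins by their sugars, and protein disulfide isomerases form and rearrange disulfide bonds. When unfolded proteins accumulate, the sensors Ern1 (IRE1), Atf6 and Eif2ak3 (PERK) start the unfolded protein response (UPR), in which Atf6 and the spliced form of Xbp1 raise the transcription of chaperone genes. Hepatocytes secrete most plasma proteins and have an extensive rough ER, and hepatic chaperone levels are known to vary with feeding and over the day. Counts per gene do not separate the spliced from the unspliced Xbp1 transcript.

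Many chaperone promoters carry the ER stress response element (ERSE), a sequence that Atf6 and spliced Xbp1 bind together with the CCAAT-binding factor NF-Y. The ERSE was searched on both strands as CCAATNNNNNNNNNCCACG in the RefSeq promoters of mouse build GRCm38.p6, which run from 250 bases before to 50 bases after each start. All 10 genes had a promoter in that table. An exact match was found in 5 of the 10 (Hspa5, Hsp90b1, Calr, Canx and Pdia6), against 39 of all 32851 promoters (0.119%). With any last base (CCAATNNNNNNNNNCCACN) Pdia3 and Pdia4 matched as well, 7 of 10 against 0.365% of all promoters. A match describes the letters only. Because the element is known from chaperone promoters, these shares are a description and no test of enrichment. No match was found in these windows of Dnajb9, Sdf2l1 or Xbp1. The matches are shown because they are the sequence feature that most of the group shares, with the outer blocks in capitals, the spacer in lower case, and each written 5′ to 3′ on the strand that carries the motif.
Hspa5: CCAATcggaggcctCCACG
Hsp90b1: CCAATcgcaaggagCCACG
Hsp90b1, second match: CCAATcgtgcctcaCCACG
Calr: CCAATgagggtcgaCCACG
Canx: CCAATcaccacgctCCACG
Pdia6: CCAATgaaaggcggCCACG
Pdia3: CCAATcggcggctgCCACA
Pdia4: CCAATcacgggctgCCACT
The match of Hspa5 lies at chr2:34772025-34772043, between 65 and 47 bases before the RefSeq start and on the strand of the gene. Those of Hsp90b1 lie at chr10:86705638-86705656 and chr10:86705533-86705551, the first on the strand of the gene and the second on the other strand. The match of Calr is at chr8:84847075-84847093, that of Canx at chr11:50325800-50325818 and that of Pdia6 at chr12:17266491-17266509. The matches with another last base are at chr2:121413873-121413891 for Pdia3 and chr6:47813602-47813620 for Pdia4. In the GENCODE vM21 annotation the matches of Hspa5 and Pdia3 lie in the first, untranslated stretch of an annotated exon of their own gene, and the other 6 lie in no annotated gene.

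**Figure D1:**
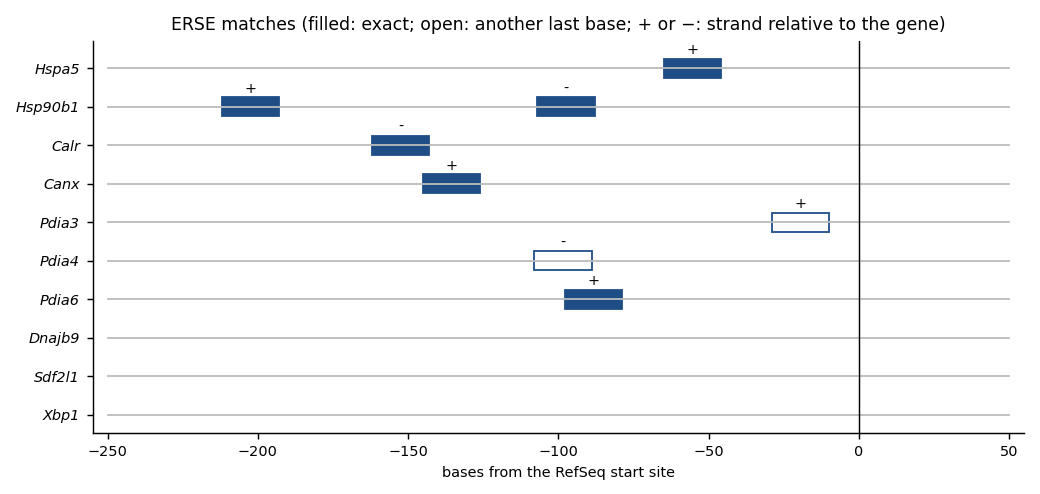
Positions of the ERSE matches in the RefSeq promoters of the 10 genes, in bases from the start site (x axis). Filled boxes are exact matches, open boxes differ in the last base, and the sign gives the strand relative to the gene: 5 genes hold an exact match, Hsp90b1 holds 2, and Dnajb9, Sdf2l1 and Xbp1 hold none in this window.

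Canx and Calr encode the membrane-bound and the soluble form of one lectin chaperone system and each hold 1 exact match. Their 250 bases before the RefSeq start are printed below because the transcripts of these partners differed in how far they moved between groups. The ERSE match is in capitals, and each sequence is written 5′ to 3′ on the strand of its gene, the minus strand in both cases.
Calr, chr8:84846932-84847181: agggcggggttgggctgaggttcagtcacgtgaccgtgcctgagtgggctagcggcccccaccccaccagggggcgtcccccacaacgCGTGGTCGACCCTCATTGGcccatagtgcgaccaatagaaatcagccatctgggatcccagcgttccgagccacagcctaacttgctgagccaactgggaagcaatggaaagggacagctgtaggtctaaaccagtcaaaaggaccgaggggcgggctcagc
Canx, chr11:50325674-50325923: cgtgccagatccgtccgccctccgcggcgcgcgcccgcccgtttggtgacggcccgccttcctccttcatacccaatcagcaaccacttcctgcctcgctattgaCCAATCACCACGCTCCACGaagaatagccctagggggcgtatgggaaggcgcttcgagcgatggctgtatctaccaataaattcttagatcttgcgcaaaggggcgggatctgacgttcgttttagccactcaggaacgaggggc
In Calr the element stands in reverse orientation, 162 to 144 bases before the start. In Canx it stands in the orientation of the gene, 145 to 127 bases before the start.

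The 36 libraries held 19403247 to 28917545 counts each, and 15338 genes passed the filter on low counts. Levels are CPM (counts scaled to a common library size) after scaling by the trimmed mean of M values (TMM), with factors from 0.757 to 1.33, lowest at month 0 (0.757 to 0.868) and highest in month 12 CCl4 (1.24 to 1.33). A gene is called where the adjusted p of the edgeR quasi-likelihood test over all tested genes is below 0.05, and fold changes are log2 values relative to the median gene. Scaling by library totals alone moves that median by 0.20 for CCl4 against oil at month 2, 0.32 at month 6, 0.54 at month 12 and 0.23 for month 2 oil against month 0. Counts of called genes shifted with it: CCl4 against oil gave 3160 higher and 179 lower genes at month 2 with totals alone and 1073 and 518 under TMM, 8884 and 177 against 1182 and 564 at month 6, and 10331 and 592 against 3975 and 3561 at month 12, while month 2 oil against month 0 gave 5270 and 1028 against 2274 and 2523. All 8 hepatocyte markers were present in each library, with summed levels of 66948 to 151419 CPM. Pancreas acinar markers summed to 9.67 to 44863 CPM, and none of the 13 was called in the comparisons of CCl4 with oil. Their spread was wide, so the lack of calls does not show equal levels. At month 12 the sum was 11213 ± 16138 CPM in oil and 2037 ± 2016 CPM with CCl4 (mean ± SD). With library totals alone all 13 changes were negative at months 6 and 12, and 8 at month 2. With a pancreas covariate 89 of 90 member results kept their sign and call. In bulk liver, fewer cells of a type and less RNA per cell cannot be told apart.

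The 10 transcripts were abundant. The lowest count of any of them in any library was 380, for Sdf2l1, and together they took 0.290% to 0.747% of all counts. Per kilobase of merged exons the mean level over 36 libraries was highest for Hsp90b1 (305 CPM per kb), Hspa5 (293) and Calr (247), intermediate for Pdia4 (133), Canx (117), Pdia3 (105), Pdia6 (80.2) and Xbp1 (70.8), and lowest for Sdf2l1 (35.1) and Dnajb9 (21.4), in the same unit. Each of the 10 genes had its highest group mean at month 0 and its next highest in month 12 oil. The ranges of groups that were neighbours in that order overlapped for each gene, except between month 0 and month 12 oil for Hspa5 and Pdia4. The lowest group mean was in month 2 CCl4 for Hspa5, Calr, Canx, Pdia3, Pdia4, Pdia6, Dnajb9 and Sdf2l1, and in month 12 CCl4 for Hsp90b1 and Xbp1.

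**Figure D2:**
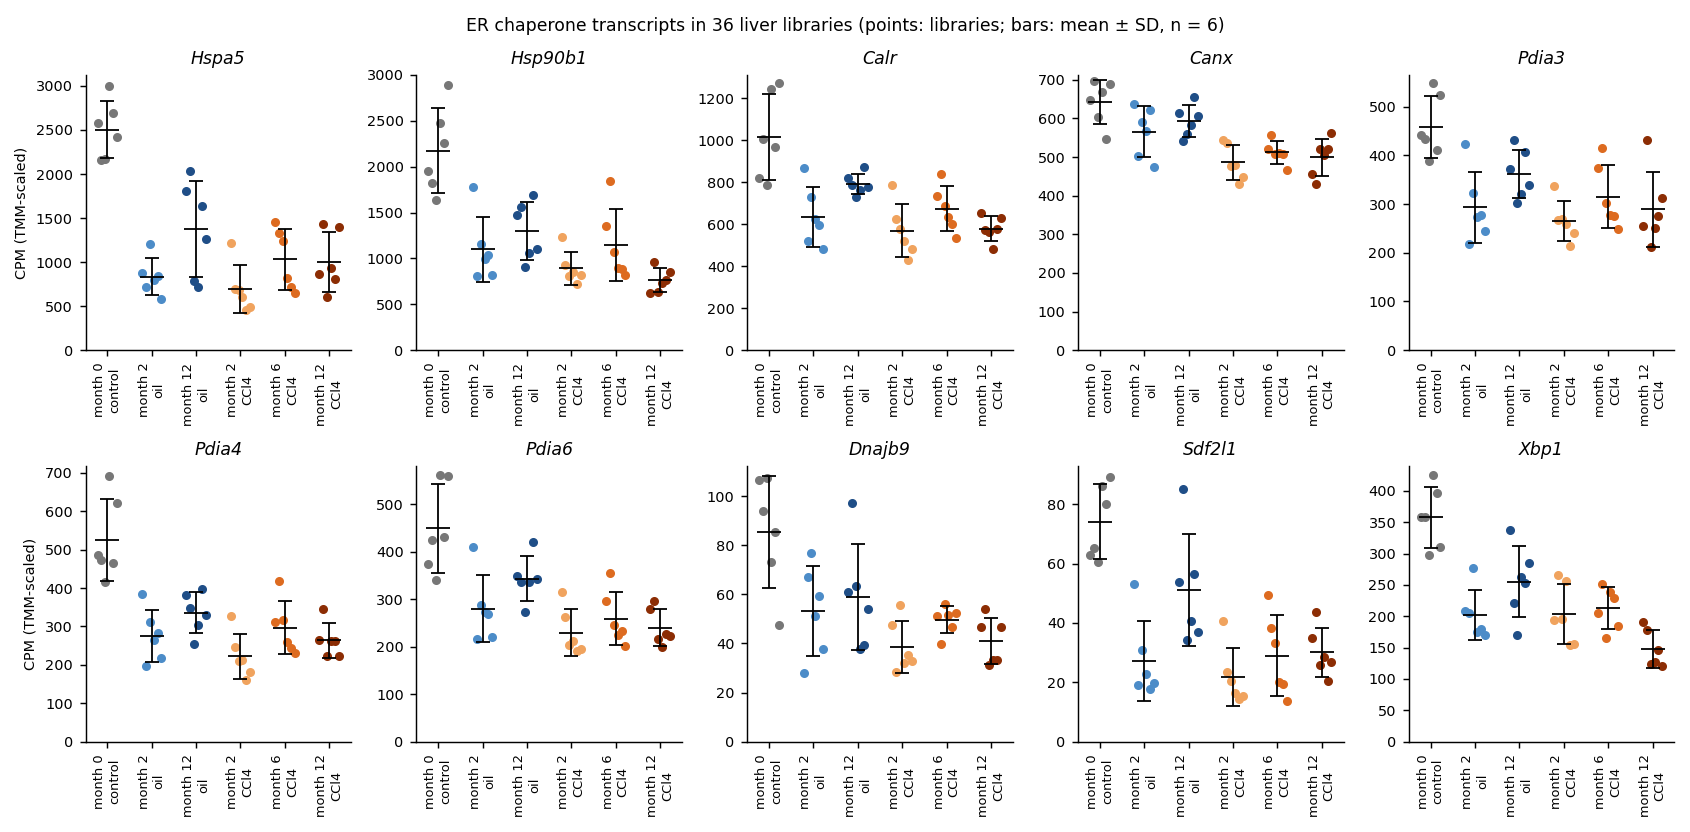
TMM-scaled CPM (y axis, from 0) of the 10 genes in 6 groups of 6 libraries, with points for libraries and bars for mean ± SD. The month 0 mean is the highest for each gene, for Hspa5 with libraries from 2163 to 3000.04 CPM against 579.8 to 1206 in month 2 oil, while CCl4 and oil groups of one month overlap in all but Calr at month 12.

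In mm10, Hspa5 lies on chromosome 2, 34771970 to 34777547 (plus strand), Hsp90b1 on chromosome 10, 86690209 to 86705509 (minus), Calr on chromosome 8, 84841850 to 84846934 (minus) and Canx on chromosome 11, 50293961 to 50325673 (minus). Pdia3 lies on chromosome 2, 121413775 to 121438687 (plus), Pdia4 on chromosome 6, 47796141 to 47813430 (minus) and Pdia6 on chromosome 12, 17266545 to 17284770 (plus). Dnajb9 lies on chromosome 12, 44205559 to 44210326 (minus), Sdf2l1 on chromosome 16, 17130138 to 17132383 (minus) and Xbp1 on chromosome 11, 5520659 to 5525893 (plus). All values are counts over whole genes. In the GENCODE vM21 annotation the span of Pdia3 overlaps Catsper2, that of Pdia6 overlaps Atp6v1c2 and that of Hsp90b1 overlaps 1810014B01Rik, each on the opposite strand, and Calr has a processed copy, Calr-ps. The libraries were made with a stranded kit, but no source used here says whether the counting used strand, so reads shared with these genes cannot be told apart.

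Hspa5, the Hsp70 of the ER lumen and the most abundant member in CPM at month 0, had lowest, median and highest levels of 2163, 2499 and 3000.04 CPM in the month 0 libraries. In month 2 oil the same values were 579.8, 821 and 1206 CPM, and in month 12 oil 721, 1450.3 and 2033 CPM. Each month 0 library thus lay above each oil library, and month 12 oil spread widely, with 2 libraries (replicates 3 and 4) at 791 and 721 CPM and 3 at 1638 CPM or more. CCl4 libraries had 458, 645 and 1212 CPM at month 2, 647, 1032 and 1450.5 CPM at month 6 and 599, 894 and 1438 CPM at month 12, and overlapped the oil libraries of the same month. Hspa5 fell by 1.58 from month 0 to month 2 oil on the log2 scale (SE 0.26, adjusted p = 3.19e-05, 6 of 6 oil libraries below the lowest month 0 library). Its log2 change with CCl4 was -0.27 at month 2 (adjusted p = 0.565), -0.05 at month 6 (adjusted p = 0.921, 0.25 with library totals alone) and -0.45 at month 12 (SE 0.26, adjusted p = 0.149, 0.07 with library totals alone), none of them called.

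Sdf2l1 and Dnajb9 work with Hspa5: Sdf2l1 is a soluble ER protein found in complexes with Hspa5 and its J-domain partners, and Dnajb9 (ERdj4) is a J-domain co-chaperone that stimulates its ATPase. Sdf2l1 had lowest, median and highest levels of 60.5, 72.8 and 89.1 CPM at month 0, 17.8, 21.3 and 53.0 CPM in month 2 oil and 34.2, 47.3 and 85.1 CPM in month 12 oil. With CCl4 it had 14.2, 18.5 and 40.7 CPM at month 2, 13.5, 26.7 and 49.3 CPM at month 6 and 20.6, 27.8 and 43.8 CPM at month 12. All month 2 oil libraries lay below the month 0 libraries, and 4 of 6 month 12 CCl4 libraries lay below the lowest month 12 oil library. Sdf2l1 fell by 1.44 from month 0 to month 2 oil (SE 0.30, adjusted p = 0.000373) and by 0.77 with CCl4 at month 12 (SE 0.29, adjusted p = 0.0284). The month 12 call was lost with library totals alone (-0.25, adjusted p = 0.454). It was also lost without month 12 oil replicate 2 (-0.59, adjusted p = 0.0935), the oil library with the highest level, and without month 12 CCl4 replicate 3 (-0.70, adjusted p = 0.0619), 4 (-0.73, adjusted p = 0.0541), 5 (-0.65, adjusted p = 0.0775) or 6 (-0.71, adjusted p = 0.0591).

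The lowest, median and highest levels of Dnajb9 were 47.5, 89.6 and 108 CPM at month 0, 27.9, 55.2 and 76.9 CPM in month 2 oil and 37.8, 57.6 and 97.3 CPM in month 12 oil. With CCl4 they were 28.5, 34.1 and 55.7 CPM at month 2, 39.9, 51.4 and 56.0 CPM at month 6 and 31.3, 40.1 and 54.2 CPM at month 12. The ranges of all 6 groups overlapped, and 1 month 0 library had only 47.5 CPM. Dnajb9 fell by 0.68 from month 0 to month 2 oil (SE 0.23, adjusted p = 0.0200), a call lost without month 2 oil replicate 1 (-0.55, adjusted p = 0.0588) or 6 (-0.60, adjusted p = 0.0558). At month 12 its change with CCl4 was -0.52 (SE 0.23, adjusted p = 0.0541), not called, although leaving out CCl4 replicate 2 of that month (-0.60, adjusted p = 0.0373) gave a call, as did leaving out month 12 oil replicate 4 (-0.64, adjusted p = 0.0200) or 5 (-0.63, adjusted p = 0.0238).

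Hsp90b1 (GRP94), the Hsp90 of the ER lumen, folds a limited set of clients that includes integrins and toll-like receptors. Its lowest, median and highest levels were 1635, 2109 and 2889.6 CPM at month 0, 808, 1012 and 1777 CPM in month 2 oil and 911, 1284 and 1694 CPM in month 12 oil. With CCl4 they were 719, 838 and 1238 CPM at month 2, 818, 981 and 1847 CPM at month 6 and 627, 751 and 959 CPM at month 12. In month 12 CCl4, 5 of 6 libraries lay below the lowest month 12 oil library, and in month 2 oil 1 library reached the range of month 0. Hsp90b1 fell by 0.77 with CCl4 at month 12 (SE 0.20, adjusted p = 0.00199) and by 0.99 from month 0 to month 2 oil (SE 0.20, adjusted p = 0.000379). The month 12 call was lost with library totals alone (-0.23, adjusted p = 0.323). Between CCl4 months 6 and 12 it fell by 0.59 (adjusted p = 0.0199), a call lost without month 6 CCl4 replicate 2 (-0.39, adjusted p = 0.109) and with library totals alone (-0.41, adjusted p = 0.108).

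The lectin chaperones Calr and Canx retain newly made glycoproteins in the ER until they have folded, Calr in the lumen and Canx in the membrane. Calr had lowest, median and highest levels of 731, 783 and 873 CPM in month 12 oil and 484, 573 and 654 CPM in month 12 CCl4, and it was the 1 member whose CCl4 and oil libraries did not overlap at month 12. Its levels were 788, 988 and 1271 CPM at month 0, 479.7, 609.6 and 866 CPM in month 2 oil, 429.8, 549 and 787 CPM in month 2 CCl4 and 536, 661 and 839 CPM in month 6 CCl4. Calr fell by 0.45 with CCl4 at month 12 under TMM (SE 0.14, adjusted p = 0.00903; 0.10, not called, with library totals alone) and by 0.68 from month 0 to month 2 oil (SE 0.14, adjusted p = 0.000501). The spread between the month 12 oil libraries was small for Calr, 792 ± 48.7 CPM (mean ± SD).

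Canx varied least of the 10 genes between group means. Over the 36 libraries it ranged from 429.5 to 698 CPM, and its group means ran from 642 ± 57.9 CPM at month 0 to 486 ± 46.2 CPM in month 2 CCl4 (mean ± SD). Canx fell by 0.25 with CCl4 at month 12 under TMM and was called higher with library totals alone (0.30, adjusted p = 0.00121). The TMM value had an SE of 0.08 and an adjusted p = 0.0151 (edgeR), and 5 of 6 CCl4 libraries lay below the lowest oil library, from 541, 595 and 656 CPM to 429.5, 512 and 563 CPM (lowest, median and highest). That call was lost without month 12 CCl4 replicate 1 (-0.20, adjusted p = 0.0572) or 2 (-0.19, adjusted p = 0.0680) and in a fit of the compared groups only (adjusted p = 0.0915). At month 2 its change was -0.22 (SE 0.08, adjusted p = 0.0932), not called, with 6 of 6 CCl4 libraries below the oil median, and without month 2 oil replicate 6 it was called (-0.27, adjusted p = 0.0395). Canx was also the 1 member not called between month 0 and month 2 oil (-0.18, SE 0.08, adjusted p = 0.0993; 0.05 with library totals alone), although it was called without month 0 replicate 5 (-0.24, adjusted p = 0.0404).

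The disulfide isomerases Pdia3 (ERp57), Pdia4 (ERp72) and Pdia6 (P5) all fell between month 0 and month 2 oil. Pdia3, which works on glycoproteins bound to Calr and Canx, had lowest, median and highest levels of 387, 438 and 549 CPM at month 0 and 218, 276 and 423 CPM in month 2 oil. Pdia4 had 417, 480.1 and 692 CPM at month 0 and 198, 273 and 386 CPM in month 2 oil, without overlap. Pdia6 had 341, 428 and 562 CPM and 217, 271 and 411 CPM. The decreases were -0.64 (SE 0.16, adjusted p = 0.00220) for Pdia3, -0.93 (SE 0.17, adjusted p = 0.000122) for Pdia4 and -0.68 (SE 0.16, adjusted p = 0.00150) for Pdia6, and all 3 were called. With the Arntl and Dbp difference as a covariate, described with the clock genes, the calls of Pdia3 and Pdia6 were lost. That difference did not overlap between month 0 and month 2 oil, so this fit cannot separate it from the change of group.

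At month 12 Pdia6 had lowest, median and highest levels of 273, 339 and 421 CPM in oil and 199.6, 225 and 297 CPM with CCl4, with 4 of 6 CCl4 libraries below the lowest oil library. Pdia6 fell by 0.51 under TMM (SE 0.16, adjusted p = 0.00815; 0.04, not called, with library totals alone). Pdia3 had 303, 355 and 431 CPM in oil and 212, 264 and 431 CPM with CCl4 (log2 change -0.32, SE 0.16, adjusted p = 0.0879; 0.22 with library totals alone). Month 12 CCl4 replicate 2 was the highest CCl4 library for both Pdia3 and Pdia4, and without it each of them was called (Pdia3 -0.45, adjusted p = 0.0138, and Pdia4 -0.42, adjusted p = 0.0482). Pdia4 had 253, 339 and 399 CPM in oil and 222, 263 and 346 CPM with CCl4 (log2 change -0.35, SE 0.17, adjusted p = 0.0896; 0.20 with library totals alone), and it was also called without month 12 oil replicate 3 (-0.44, adjusted p = 0.0415). At month 2 the CCl4 levels were 214 to 338 CPM for Pdia3, 162 to 326 CPM for Pdia4 and 191 to 314 CPM for Pdia6, and at month 6 249 to 415, 231 to 417 and 201 to 356 CPM in the same order.

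Xbp1 encodes the transcription factor of the IRE1 branch, and its log2 change with CCl4 at month 12 was the most negative of the 10 under TMM (with library totals alone that of Sdf2l1 was). Its lowest, median and highest levels were 171, 258 and 338 CPM in month 12 oil and 120.1, 137 and 191 CPM in month 12 CCl4, where 4 of 6 libraries lay below the lowest oil library and all 6 below the oil median. The levels were 297, 358 and 425 CPM at month 0, 170.2, 192 and 277 CPM in month 2 oil, 155, 195 and 265 CPM in month 2 CCl4 and 165, 217 and 252 CPM in month 6 CCl4. Both groups of month 2 overlapped, and the month 12 CCl4 libraries were the lowest group. Xbp1 fell by 0.79 with CCl4 at month 12 (SE 0.16, adjusted p = 0.000119), a call lost with library totals alone (-0.23, adjusted p = 0.193), against a change of 0.01 at month 2 (SE 0.16, adjusted p = 0.981). The difference between both effects was -0.80 (SE 0.22, adjusted p = 0.00989, interaction test), with library totals alone -0.44 (adjusted p = 0.127). Between CCl4 months 6 and 12 it fell by 0.52 (SE 0.16, adjusted p = 0.00882), with library totals alone by 0.34 (adjusted p = 0.0863).

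At month 2 the CCl4 and oil libraries overlapped for each of the 10 genes. None of the 10 genes was called, against 3.38% of all tested genes called lower and 7% called higher. The log2 changes ran from -0.47 for Dnajb9 to 0.01 for Xbp1, 9 of 10 were negative (7 with library totals alone, where Calr and Pdia3 turned positive), and their median was -0.28 beside -0.00 over all genes. At an unadjusted p below 0.05 there were 2 (Canx and Dnajb9), DESeq2 called 1 (Canx) and limma-voom called 0. The interval of 2 SE on either side ran from -0.79 to 0.24 for Hspa5 and from -0.70 to 0.11 for Hsp90b1. Macrophage markers were higher with CCl4 in 6 of 8 and fibroblast and stellate cell markers in 6 of 10 at month 2, and neither list had a lower call. Macrophage markers summed to 431 to 546 CPM in oil and 522 to 924 CPM with CCl4, and fibroblast and stellate cell markers to 507 to 809 and 847 to 1161 CPM, with no marker of either list at 0 in all libraries. The part of these markers in the result was not tested.

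After 6 months of CCl4 the mean of both oil groups on the log scale served as the reference. Again 0 of 10 genes was called by edgeR, against 3.68% of all genes called lower and 7.71% called higher, with 1 (Canx) at an unadjusted p below 0.05, 1 (Canx) with DESeq2 and 0 with limma-voom. The log2 changes ran from -0.37 for Sdf2l1 to -0.04 for Pdia4, and their median was -0.09. All 10 were negative under TMM, and 9 of 10 turned positive with library totals alone (all but Sdf2l1), none of them called. Against month 2 oil alone 7 were positive, and from CCl4 month 2 to CCl4 month 6 all 10 were positive (median 0.31, from 0.06 for Xbp1 to 0.58 for Hspa5) with 0 called by edgeR, DESeq2 and limma-voom, 2 at an unadjusted p below 0.05, and 0.228% and 0.274% of all genes called lower and higher.

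At month 12 the comparison with oil of the same age gave 6 of 10 genes called lower (Xbp1, Hsp90b1, Sdf2l1, Pdia6, Calr and Canx) and 0 called higher relative to the median gene, whereas with library totals alone 1 was called, Canx, and it was higher. Of all tested genes 23.2% were called lower and 25.9% higher under TMM, and 10.2% had CCl4 libraries that lay below all oil libraries, as Calr did. With library totals alone 10331 of all 15338 tested genes were called higher and 592 lower. The 10 log2 changes had a median of -0.48, beside 0.01 over all genes, and all 10 were negative under TMM. With library totals alone the median of the 10 was 0.05, while the median gene moved by 0.54, and the direction turned for 6 of them. Beside Canx, Hspa5 (0.07), Calr (0.10), Pdia3 (0.22), Pdia4 (0.20) and Pdia6 (0.04) turned positive without a call, while Hsp90b1 (-0.23), Sdf2l1 (-0.25), Xbp1 (-0.23) and Dnajb9 (-0.02) stayed negative, none called. As a share of all counts the 10 genes took 0.346 to 0.653% in month 12 oil and 0.389 to 0.616% in month 12 CCl4. Hepatocyte markers moved with this comparison: 5 of 8 fell (median -0.66), with summed levels of 66948 to 112785 CPM in oil and 67443 to 103766 CPM with CCl4, while 2 fell and 2 rose with library totals alone. Macrophage markers were higher in 5 of 8 (7 with library totals alone, 492 to 630.1 CPM in oil and 384 to 1109 CPM with CCl4, summed), cholangiocyte markers in 4 of 7 (6 with totals, 42.0 to 96.5 and 216 to 1113 CPM), and fibroblast and stellate cell markers in 2 of 10 with 2 lower (7 higher and 0 lower with totals, 595 to 1198 and 685 to 839.6 CPM). Among 10 genes that respond to feeding and fasting 4 were higher, Fgf21 (3.88), Igfbp1 (3.50) and Pnpla3 (1.95) among them, and 1 was lower, Pck1 (-0.69), with 7 higher and 0 lower with library totals alone. For Fgf21 and Igfbp1 the effect at month 12 was also higher than at month 2 in the interaction test. The part of these markers and genes in the result was not tested.

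The effects at months 12 and 2 differed for 1 of the 10 genes under TMM, Xbp1, against 10.1% of all genes called lower and 11.2% called higher in that test. For the other 9 the difference was not called under TMM, and its interval stayed wide, for example -1.04 to 0.10 for Hsp90b1 and -1.27 to 0.38 for Sdf2l1. With library totals alone Canx was called in place of Xbp1 (0.32, interaction test, adjusted p = 0.0251). In that fit 5553 of all 15338 tested genes were called, and the median gene moved by 0.34. From CCl4 month 6 to CCl4 month 12 Hsp90b1 and Xbp1 were called lower, 2 of 10 against 18.6% of all genes lower and 20.6% higher, and with library totals alone 0 of 10. The remaining 8 ranged from -0.28 for Dnajb9 to 0.05 for Sdf2l1.

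**Figure D3:**
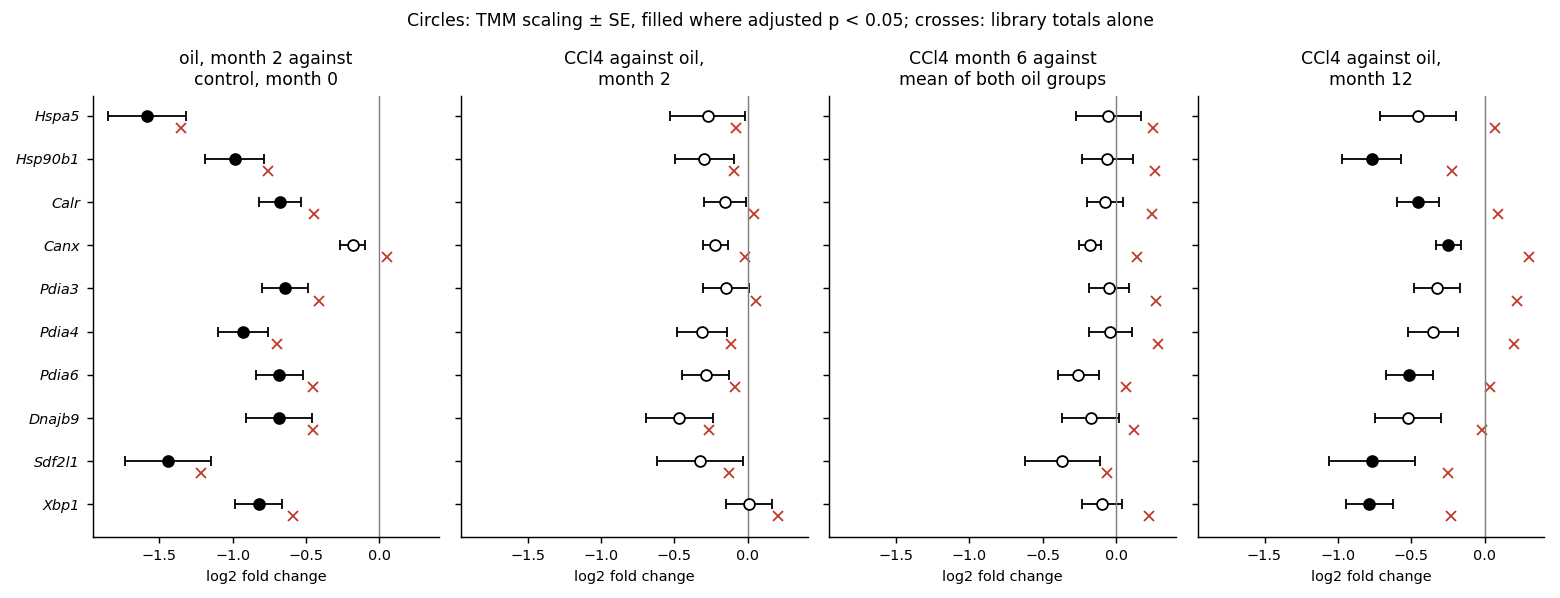
Log2 fold changes (x axis) of the 10 genes in 4 comparisons, with circles for TMM scaling (bars: SE, filled where the adjusted p is below 0.05) and crosses for library totals alone. Month 2 oil lay below month 0 for 9 called genes, and at month 12 the 6 called genes lay left of 0 under TMM, while 6 of the 10 crosses lie right of 0.

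Of the 9 comparisons, that of month 2 oil with month 0 had the most members called, between groups that had received no CCl4. From month 0 to month 2 oil 9 of 10 genes fell, against 16.4% of all genes called lower and 14.8% called higher, and the median of the 10 was -0.75 beside -0.00 over all genes. Hspa5, Sdf2l1, Pdia4 and Xbp1 had month 2 oil libraries that all lay below the month 0 libraries, 4 of 10 against 6.92% of all genes. With library totals alone 8 were called lower, Dnajb9 lost its call (-0.45, adjusted p = 0.141) and Canx turned to 0.05 without a call. The share of all counts was 0.566 to 0.747% at month 0 and 0.319 to 0.510% in month 2 oil.

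Between month 0 and month 12 oil, a comparison added after the levels had been seen, 4 of 10 fell: Hspa5 (-0.86, SE 0.26, adjusted p = 0.0153), Hsp90b1 (-0.74), Pdia4 (-0.65) and Xbp1 (-0.49). Of all genes 12.2% were called lower and 11.1% higher. Xbp1 lost this call without month 0 replicate 4 (-0.44, adjusted p = 0.0612) or 5 (-0.47, adjusted p = 0.0510), month 12 oil replicate 2 (-0.45, adjusted p = 0.0550) or 3 (-0.41, adjusted p = 0.0675), and with library totals alone (-0.36, adjusted p = 0.0893). Calr was called without month 0 replicate 1 (-0.43, adjusted p = 0.0360) or 3 (-0.44, adjusted p = 0.0309), Pdia6 without month 0 replicate 3 (-0.47, adjusted p = 0.0384) or month 12 oil replicate 5 (-0.47, adjusted p = 0.0429), and Dnajb9 without month 0 replicate 6 (-0.67, adjusted p = 0.0281) or month 12 oil replicate 2 (-0.75, adjusted p = 0.0164). Between month 12 and month 2 oil all 10 were higher at month 12 under TMM (median 0.30, up to 0.91 for Sdf2l1 and 0.72 for Hspa5; Canx turned to -0.04 with library totals alone), but 0 was called by edgeR, DESeq2 and limma-voom, with 4 at an unadjusted p below 0.05. In that comparison 0.0326% of all genes were called lower and 0.0391% higher.

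Other measures moved with these groups. Mitochondrially encoded genes took 3.04 to 3.93% of the counts at month 0 and 4.56 to 6.09% in month 2 oil, without overlap, and the part of this share in the result was not tested. Among 12 clock genes 6 rose and 1 fell from month 0 to month 2 oil, among them Nr1d1 (2.52), a clock repressor, and Arntl (-2.60), a clock activator. Arntl peaks in mouse liver at another time of day than Dbp, an output gene of the clock. The log2 difference of Arntl and Dbp had a median of 1.99 at month 0 (-1.71 to 3.85), -4.27 in month 2 oil (-5.20 to -2.90) and 1.52 in month 12 oil (-3.92 to 2.98). With CCl4 the median was -5.20 at month 2 (-5.70 to -0.998), -3.23 at month 6 (-5.33 to 2.96) and -0.808 at month 12 (-2.74 to 1.84). The month 6 libraries differed among themselves, with -1.38 to 2.96 in replicates 1 to 3, where Hspa5 was at 1239.98 to 1450.5 CPM, and -5.33 to -5.08 in replicates 4 to 6, where Hspa5 was at 647 to 824 CPM. Not all libraries of other groups followed this pattern: in month 12 oil, replicate 3 had 2.28 with Hspa5 at 791 CPM, and replicate 5 had -0.68 with Hspa5 at 1638 CPM. Over all groups the within-group r of Hspa5 with the difference was 0.52, which did not pass adjustment over the 10 genes. By group, those with the highest chaperone levels (month 0 and month 12 oil) were the ones with a positive median difference. The CCl4 groups did not follow that order. The median difference was higher at month 12 (-0.808) than at month 6 (-3.23). From CCl4 month 6 to 12, however, 9 of 10 log2 changes were negative under TMM (2 called), and 4 with library totals alone (0 called). With that difference as a covariate 5 of 10 genes were called lower from month 0 to month 2 oil: Hspa5 (-0.999, adjusted p = 0.0133), Pdia4 (-0.69), Xbp1 (-0.83), Hsp90b1 (-0.70) and Calr (-0.52). In that fit 1189 of 15338 genes were called lower. The difference did not overlap between month 0 (-1.71 to 3.85) and month 2 oil (-5.20 to -2.90). Calls kept or lost in that fit thus cannot tell the clock difference apart from the change of group. The calls of Sdf2l1 (-0.94, adjusted p = 0.0508), Dnajb9 (-0.55, adjusted p = 0.203), Pdia6 (-0.52, adjusted p = 0.0630) and Pdia3 (-0.44, adjusted p = 0.105) were lost. The same covariate left the 6 calls at month 12 in place, with Xbp1 at -0.79 and Hsp90b1 at -0.70. Plasma and B cell markers also differed between month 0 and month 2 oil, 8 of 9 higher and 1 lower (Sdc1, which hepatocytes also express), with Jchain at a median of 2.13 CPM at month 0 and 25.5 CPM in month 2 oil, and all 5 red cell markers were higher in month 2 oil. Summed levels were 383 to 472 CPM at month 0 and 178 to 262 CPM in month 2 oil for plasma and B cell markers, and 184 to 1045 and 998 to 1806 CPM for red cell markers. The part of these cell markers in the result was not tested.

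Within groups most of the members varied together. After group means were removed from log2(CPM + 1), the correlation of Hspa5 over 36 libraries with each other member (9 relations, permutation within groups, adjusted over the 9) was 0.78 for Pdia3 (Spearman's rho 0.84), 0.76 for Sdf2l1 (rho 0.79), 0.76 for Hsp90b1 (rho 0.82) and 0.72 for Pdia4 (rho 0.75). For these 4 the p of r and of rho was the smallest that 100000 permutations can give (1e-05, adjusted 2.25e-05 for r and 1.80e-05 for rho). Calr (r 0.60, permutation p = 3.00e-05, adjusted 5.40e-05; rho 0.66) and Pdia6 (r 0.60, permutation p = 0.000110, adjusted 0.000165; rho 0.66) followed. Lower values were found for Canx (r 0.35, rho 0.38, permutation p = 0.0375 and 0.0276, adjusted 0.0422 and 0.0355) and for Dnajb9 (r 0.36, rho 0.34, permutation p = 0.0367 and 0.0551, adjusted 0.0422 and 0.0616). It was not called for Xbp1 (r 0.35, rho 0.35, permutation p = 0.0722 and 0.0616, adjusted 0.0722 and 0.0616). Without the 2 libraries farthest from the Hspa5 median r lay between 0.25 (Dnajb9) and 0.77 (Pdia3). With the Arntl and Dbp difference and the pancreas markers also removed, an alternative added after the values were seen, Xbp1 reached r 0.47 (permutation p adjusted 0.0119) and Dnajb9 0.30 (adjusted 0.126). These values share each library, its depth and its scaling. The share of all tested genes that relate to Hspa5 in this way was not examined.

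Among all 45 pairs the within-group correlation had a median of 0.54, from -0.31 for Pdia6 and Dnajb9 to 0.92 for Pdia4 and Pdia6, as a description over 36 libraries. Dnajb9 had the lowest values, and its r within groups was negative with Hsp90b1 (-0.22), Calr (-0.20), Canx (-0.29), Pdia3 (-0.03), Pdia4 (-0.17) and Pdia6. The contrast can be seen in month 0 replicate 6, which had the highest Hsp90b1 level of all libraries (2889.6 CPM) and the lowest Dnajb9 level of its group (47.5 CPM). In month 2 oil, replicate 1 had the highest Hsp90b1 level (1777 CPM) and the lowest Dnajb9 level of its group (27.9 CPM). A test chosen after the values were seen related the Arntl and Dbp difference to each of the 10 genes within groups. None passed at an adjusted p of 0.05, the highest being Hspa5 (r 0.52, rho 0.46, permutation p = 0.00507 and 0.0148, adjusted 0.0507 and 0.148 over 10 relations, and r 0.40 without the 2 libraries farthest from the median). With library totals alone 1 of the 10 passed. Members and clock difference both changed between groups, and within groups r ran from -0.03 for Xbp1 to that of Hspa5.

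**Figure D4:**
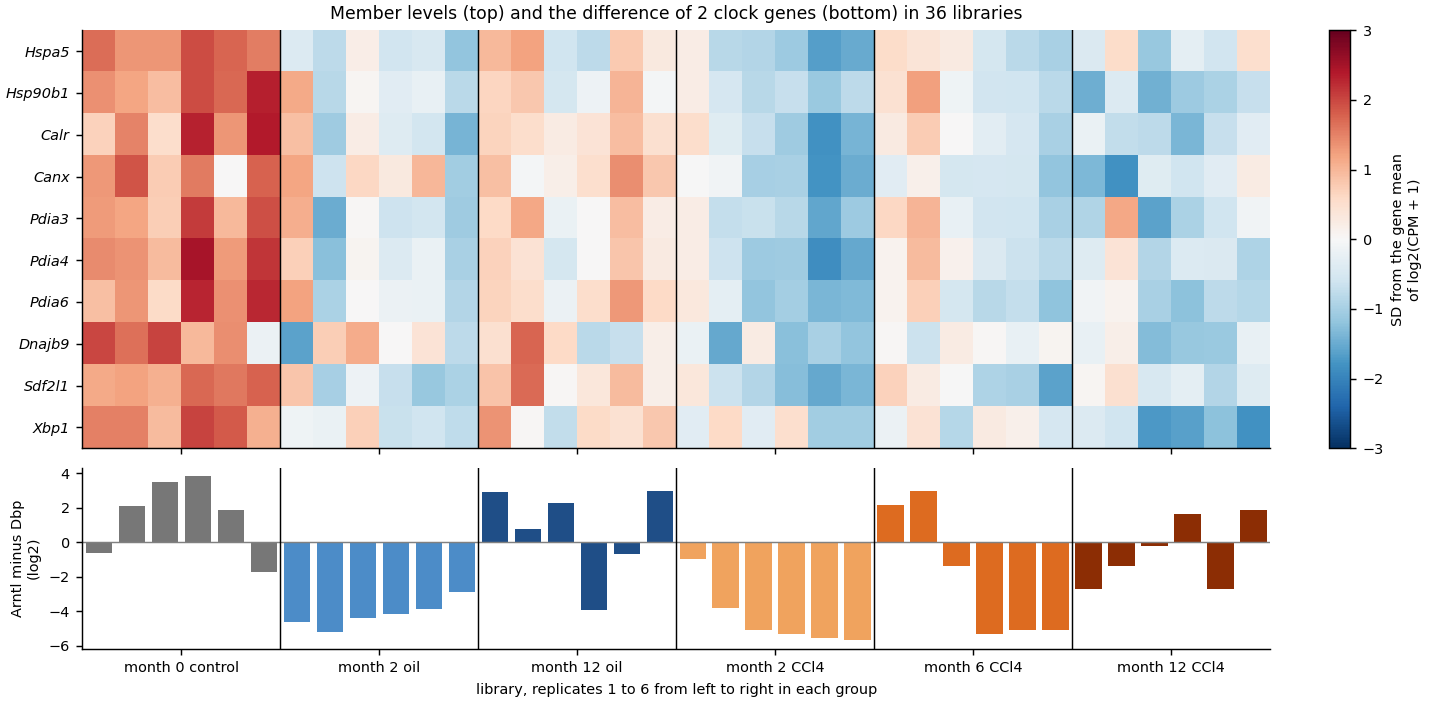
Levels of the 10 genes in each library (top, colour: SD from the mean of the gene on the log2(CPM + 1) scale over 36 libraries) above the log2 difference of Arntl and Dbp in the same library (bottom). The month 0 columns are red in nearly all genes, Dnajb9 departs from the other rows in several libraries, and the difference runs from -5.70 to 3.85 over the libraries.

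The rest of the secretory pathway was followed in 6 lists. Of all tested genes 16.4% were called lower and 14.8% higher between month 0 and month 2 oil under TMM. From month 0 to month 2 oil 31 of 39 other ER chaperones and folding enzymes fell and 0 rose (median -0.44, and 15 and 0 with library totals alone). Mesdc2, a chaperone of LDL receptor family proteins (-0.64), the disulfide isomerase Pdia5 (-0.90) and the Hsp70 protein Hspa13 (-1.03) had the smallest p. The genes named in this comparison were chosen by their p after the values were seen. Of 28 genes of translocation into the ER and N-glycosylation 22 fell and 0 rose (15 and 1 with totals alone), led by the oligosaccharyltransferase subunits Ostc (-1.03) and Ddost (-0.59) and the translocon protein Ssr2 (-0.76). ER-associated degradation fell in 13 and rose in 2 of 27 genes, ER to Golgi transport fell in 14 and rose in 2 of 26, and cytosolic and mitochondrial heat shock proteins fell in 11 and rose in 1 of 20. The month 0 libraries were not alike in the last list, whose summed level was 6398 to 7928 CPM in replicates 1 to 3 and 3414 to 3803 CPM in replicates 4 to 6, beside 2710.1 to 4526 CPM in month 2 oil. Of the 10 members, Hsp90b1 (1635 to 1957 and 2262 to 2889.6 CPM), Sdf2l1 (60.5 to 65.3 and 80.2 to 89.1 CPM) and Pdia6 (341 to 425 and 432 to 562 CPM) were lower in replicates 1 to 3 than in 4 to 6. Dnajb9 was higher in replicates 1 to 3 (93.9 to 108 CPM) than in 4 to 6 (47.5 to 85.3 CPM), and the levels of the remaining members overlapped. The part of this difference in the counts was not tested. With totals alone the counts of degradation, transport and heat shock genes were 3 and 7, 6 and 7, and 7 and 1. Among 18 UPR sensors and transcription factors 3 fell, Atf4 (-0.77), Wfs1 (-0.71) and Atf6b (-0.66), and Trib3, a target of Atf4 and Ddit3, rose (1.67), with 3 lower and 7 higher with totals alone.

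With CCl4 at month 12 the direction of the lists depended on the scaling. Library totals alone gave 10331 higher and 592 lower calls among all 15338 tested genes in this comparison. Under TMM 23.2% of all tested genes were called lower and 25.9% higher. Relative to the median gene 16 of 39 other chaperones and folding enzymes fell and 5 rose (median -0.18), against 1 lower and 22 higher with library totals alone. Cnpy2 (-0.49), the glucosidase subunit Ganab (-0.53) and Erp44, which retrieves immature proteins from the early Golgi (-0.44), fell under TMM and were not called with totals alone (0.05, 0.02 and 0.11). The reductase co-chaperone Dnajc10 rose by 1.44, SE 0.20, adjusted p = 5.44e-07, Fkbp11 by 0.90 and Fkbp7 by 0.62, and these 3 rose under totals as well (1.99, 1.46 and 1.16). ER-associated degradation fell in 12 of 27 and rose in 2 (1 and 19 with totals alone). Os9 (-0.66), a lectin of the degradation complex, its scaffold Sel1l (-0.84) and the mannosidase-like Edem1 (-0.65) fell, and Man1b1 (0.35) and Derl1 (0.25) rose. With totals alone their log2 changes were -0.11, -0.30, -0.11, 0.90 and 0.80.

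Translocation and N-glycosylation fell in 13 and rose in 1 of 28 genes at month 12 (0 and 15 with totals alone), with Sec63 (-0.72), which recruits Hspa5 to the translocon, Magt1 (-0.71) and Sec62 (-0.44, 0.12 with totals) lower and Tusc3 (0.26) higher. ER to Golgi transport fell in 9 of 26, among them the cargo lectins Lman2 (-0.73) and Lman1 (-0.50, 0.04 with totals). Kdelr3, a receptor that returns chaperones to the ER, rose (1.38), and with totals alone 0 fell and 19 rose. Over all tested genes 23.2% were called lower under TMM in the same comparison. Cytosolic and mitochondrial heat shock proteins fell in 8 and rose in 0 of 20 (0 and 7 with totals alone), led by the co-chaperones Dnaja1 (-0.88) and Ahsa1 (-0.64). Among UPR sensors and transcription factors 3 of 18 rose: Trib3 (2.27, SE 0.43, adjusted p = 4.23e-05), Atf3 (1.33) and Ddit3 (0.86), with 13 higher and 0 lower with totals alone. The share of 3 of 18 under TMM lay below that of all tested genes called higher in the same comparison (25.9%). Creb3l3, a liver factor of the Atf6 family, fell under TMM (-0.51, 0.04 with totals).

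At months 2 and 6 few genes of these lists were called under TMM. Of all tested genes 3.38% were called lower and 7% higher at month 2, and 3.68% and 7.71% at month 6. With library totals alone the genes called at month 6 were all higher: 18 of 39 other chaperones, 13 of 27 genes of degradation, 7 of 18 UPR genes, 12 of 28 of translocation and glycosylation, 17 of 26 of ER to Golgi transport and 8 of 20 heat shock genes. In that fit 8884 of all 15338 tested genes were called higher and 177 lower. At month 2 4 of 27 genes of ER-associated degradation fell, against 0 lower and 3 higher with totals alone. Among them were Vcp, the ATPase that extracts substrates from the membrane (-0.38, SE 0.06, adjusted p = 0.000177, edgeR), and its cofactors Ufd1l (-0.33) and Nploc4 (-0.30). The sensor Atf6 (-0.32) and Creb3 (-0.29) were lower, as were the nucleotide exchange factor Sil1 (-0.27), Ssr4 (-0.26), Preb (-0.34), Mcfd2 (-0.35) and the cytosolic Hspa4 (-0.26), and Uggt2 was higher (0.41). None of these lower genes was called with totals alone. At month 6 Atf3 was higher (0.93) and Atf6 lower (-0.26, 0.05 with totals), and Ppib (-0.36), Tmx1 (-0.21, 0.11 with totals), Sil1 (-0.22, 0.10), Ssr4 (-0.29, 0.03), Sec11c (-0.42), Tram1 (-0.26, 0.06), Nploc4 (-0.21, 0.11) and Hspa4 (-0.21, 0.11) were lower under TMM. No gene of ER to Golgi transport was called at month 6 under TMM, against the 17 higher with totals alone, the widest changes being those of Kdelr3 (0.53) and Tmed9 (-0.22, 0.10 with totals).

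**Figure D5:**
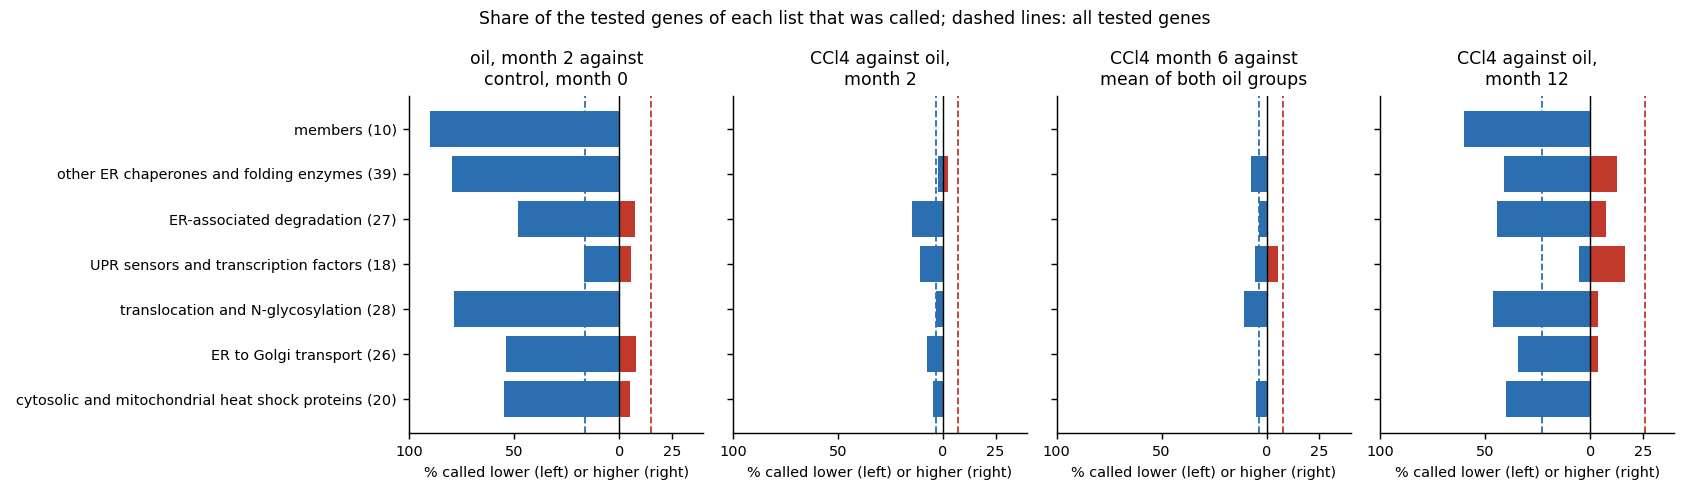
Share of the tested genes of each list (number in brackets) that was called lower (left, blue) or higher (right, red) under TMM scaling, with dashed lines for all tested genes. Lower calls prevail in month 2 oil against month 0 for each list and at month 12 for each list but the UPR sensors and transcription factors. In month 2 oil against month 0, library totals alone gave more higher than lower calls in 3 lists. These were ER-associated degradation (7 and 3), UPR sensors and transcription factors (7 and 3) and ER to Golgi transport (7 and 6). With library totals alone higher calls prevail at month 12 in the 6 lists beside the members, as they do over all 15338 tested genes (10331 higher and 592 lower).

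The genes whose levels were most like the mean of the 10 members were themselves mostly ER chaperones. Over 36 libraries, among 12295 genes, the highest correlations included those of Dnajb11 (0.97), a J-domain partner of Hspa5, Manf (0.95), a secreted ER protein that binds Hspa5, Hyou1 (0.95), the nucleotide exchange factor of Hspa5, and Dnajc3 (0.94). With group means removed the order was Hyou1 (0.92), Dnajb11 (0.89), Creld2 (0.88), Slc35b1 (0.87), an ATP carrier of the ER membrane, and Dnajc3 (0.86). From month 0 to month 2 oil Creld2 changed by -2.30 and Manf by -1.80, and at month 12 CCl4 went with -1.09 for Hyou1 and -0.93 for Manf on the log2 scale, all 4 called under TMM. At month 12 Creld2 (-0.30, adjusted p = 0.597) and Slc35b1 (-0.17, adjusted p = 0.302) were not called. These correlations describe 36 libraries that share scaling. Dnajb11, Manf, Hyou1 and Dnajc3 were picked with the group differences included, so their changes between groups partly follow from that choice. Outside the 10 genes, exact ERSE matches among the lists were found in Dnajc3, Creld2, Ero1b, Syvn1 and Derl3.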

How the data were processed

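Total RNA depleted of ribosomal RNA had been sequenced in 36 liver libraries made with a stranded kit, per the labels' protocols. The deposited values are raw read counts per gene symbol, produced by the authors from reads mapped with BioJupies, per the labels' protocols. The submitters' processing notes name mm10, edgeR 3.30.3 and limma 3.44.3. The annotation used and the strand setting are not given in the sources used here. All 36 columns matched a sample description, and 0 columns were left unmapped.

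Counts were tested with edgeR 4.0.16 in R 4.3.3 (filterByExpr, TMM scaling, quasi-likelihood F-test, 1 fit of 36 libraries with a coefficient per group, Benjamini-Hochberg adjustment over 15338 genes). The SE is the log2 fold change divided by the square root of F. The test was checked on simulated data. DESeq2 1.42.0, limma-voom 3.58.1, other scalings, filters, covariates, a replicate block and fits without each library served as alternatives. Relations used log2(CPM + 1) in scipy 1.17.1. Depth was 19403247 to 28917545 counts, and 6 libraries per group limit the precision.

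The 10 genes, the lists and the tests were chosen with earlier results of these data known. In each list, at most 3 called genes per direction with the smallest p were named for each comparison of CCl4 with oil, or the 2 widest changes where none was called, and the 5 genes most like the mean of the members with 1 CPM or more on average, of which 1 is not reported here. Replicate numbers do not pair the libraries: over 90 same-numbered pairs the correlation of deviations had a median of -0.03. Motifs were searched in RefSeq promoters.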

Additional observations from a re-analysis of the deposited data

Results flagged for a closer look

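In 60 groups of 6 libraries (10 genes in 6 groups), 7 had 1 library so far from the other 5 that its gap passed the 95% limit of Dixon's test, which chance passes in about 1 of 20 groups. In month 2 CCl4, replicate 1 had 1212 CPM of Hspa5 against 458 to 699.7 CPM in the other 5 libraries, and 40.7 CPM of Sdf2l1 against 14.2 to 23.3 CPM. The same library had the highest summed level of red cell markers of all 36 (7292 CPM) and the highest Arntl and Dbp difference of its group (-0.998). In month 2 oil, replicate 1 had 1777 CPM of Hsp90b1 against 808 to 1160 CPM, 411 CPM of Pdia6 against 217 to 289 CPM and 53.0 CPM of Sdf2l1 against 17.8 to 30.9 CPM, and its pancreas acinar markers summed to 14792 CPM. In month 2 oil, replicate 3 had 277 CPM of Xbp1 against 170.2 to 209 CPM. In month 12 CCl4, replicate 2 had 346 CPM of Pdia4 against 222 to 264 CPM. The effect of CCl4 on Xbp1 differed between months 12 and 2 by -0.80 on the log2 scale (edgeR interaction test, adjusted p = 0.00989), and scaling by library totals alone removed that call (-0.44, adjusted p = 0.127).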

How the results depend on the processing

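The direction of the CCl4 comparisons depended most on the scaling. With library totals alone, log2 changes that were negative under TMM turned positive at month 2 for Calr (0.042) and Pdia3 (0.054). At month 6 they turned for Hspa5 (0.25), Hsp90b1 (0.26), Calr (0.24), Canx (0.14), Pdia3 (0.27), Pdia4 (0.28), Pdia6 (0.066), Dnajb9 (0.12) and Xbp1 (0.22). At month 12 they turned for Hspa5 (0.071), Calr (0.095), Canx (0.30), Pdia3 (0.22), Pdia4 (0.20) and Pdia6 (0.038), and 1 member was called. In the interaction they turned for Hspa5 (0.15), Calr (0.053), Canx (0.32), Pdia3 (0.16), Pdia4 (0.31), Pdia6 (0.13) and Dnajb9 (0.25). From CCl4 month 6 to 12 they turned for Hspa5 (0.14), Canx (0.14), Pdia3 (0.056), Pdia4 (0.0073) and Pdia6 (0.067), with 0 members called. Canx also turned between both oil groups (-0.037), between month 0 and month 2 oil (0.053) and between month 0 and month 12 oil (0.016). Called genes came to 3339 at month 2, 9061 at month 6, 5553 in the interaction and 183 for month 12 against month 2 oil, against 1591, 1746, 3263 and 11 under TMM, and 1 member was related to the clock difference.

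The replicate block changed no call of a member. Under the block Xbp1 at month 2 was -0.014 and Hspa5 from CCl4 month 6 to 12 0.0036, both with a turned sign, and called genes were 19 for month 12 against month 2 oil and 50 for CCl4 month 6 against 2 (11 and 77 without it). Same-numbered libraries did not share deviations (5 of 36 correlated best with their own number). Xbp1 at month 2, which was near 0, was also negative with RLE factors (-0.0070), limma-voom (-0.0014) and DESeq2 (-0.0070). DESeq2 called 1 member (Canx) at month 2 (-0.24, adjusted p = 0.0304), 1 (Canx) at month 6 (-0.19, adjusted p = 0.0492), Dnajb9 at month 12 (-0.54, adjusted p = 0.0357) and Calr for month 12 oil against month 0 (-0.35, adjusted p = 0.0487). Dnajb9 at month 12 was called as well with RLE factors (-0.54, adjusted p = 0.0466) and the pancreas covariate (-0.54, adjusted p = 0.0401). With the Arntl and Dbp covariate 5 members and 2345 genes were called for month 2 oil against month 0 (9 and 4797 without it), Pdia4 turned in the interaction (0.028) and Hsp90b1 in month 12 against month 2 oil (-0.013). Without 4 libraries (replicates 1 and 6 of CCl4 at month 2, replicate 2 of each oil group), 884 genes were called at month 2, 1 member (Canx, -0.23, adjusted p = 0.0444) at month 6, and Sdf2l1 lost its call at month 12 (-0.59, adjusted p = 0.0709). Signs then turned in the interaction for Hspa5 (0.18), Pdia3 (0.018), Pdia4 (0.15), Dnajb9 (0.095) and Sdf2l1 (0.070), and for Xbp1 from CCl4 month 2 to 6 (-0.033). With month 2 oil alone as the reference of month 6, signs turned for Hspa5 (0.31), Hsp90b1 (0.061), Calr (0.081), Pdia3 (0.11), Pdia4 (0.10), Sdf2l1 (0.085) and Xbp1 (0.070), and with month 12 oil alone 1115 genes were called. Called genes for month 12 against month 2 oil and for CCl4 month 6 against 2 were few and moved with most settings: 26 for the oil comparison with 1 CPM in 6 libraries and 20 with the pancreas covariate, and for both in this order 7 and 14 with the clock covariate, 6 and 21 without the 4 libraries, 17 and 38 with limma-voom, 140 and 119 with DESeq2, and 190 and 34 in fits of the compared groups only. The cause of these shifts was not tested.

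Leaving out 1 library in turn gave 5 to 8 members called at month 12, 0 to 1 at month 2, 8 to 10 for month 2 oil against month 0 and 1 to 2 for CCl4 month 12 against 6. Called genes ran over 1049 to 2376 at month 6 (lowest without month 6 CCl4 replicate 2), 4 to 28 for month 12 against month 2 oil and 12 to 111 for CCl4 month 6 against 2. Changes whose range crossed 0 were those at month 6 of Hspa5 (-0.17 to 0.034), Hsp90b1 (-0.24 to 0.034), Pdia3 (-0.13 to 0.020) and Pdia4 (-0.15 to 0.020), the interactions of Canx (-0.067 to 0.036), Dnajb9 (-0.19 to 0.14), Hspa5 (-0.31 to 0.056) and Pdia4 (-0.16 to 0.10), from CCl4 month 6 to 12 those of Canx (-0.065 to 0.011), Hspa5 (-0.16 to 0.083), Pdia6 (-0.17 to 0.012) and Sdf2l1 (-0.091 to 0.27), and Xbp1 at month 2 (-0.081 to 0.12) and from CCl4 month 2 to 6 (-0.0069 to 0.15) and Dnajb9 in month 12 against month 2 oil (-0.049 to 0.28), none of them called.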
